A study of Mus musculus with 12 samples.

Results

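The 10 genes described here are 5 chemokines (*Cxcl1*, *Cxcl5*, *Cxcl12*, *Ccl2* and *Ccl7*), 2 cytokines of the interleukin-6 family (*Il6* and *Lif*), 2 acute phase genes (*Saa3* and *Lcn2*) and the cytokine *Mif*. They were taken by symbol from a table of 56748 genes, and all 10 were among the 16465 genes with enough counts to be tested. The cells were 10T1/2, a wild-type line of mouse mesenchymal progenitors derived from C3H embryos. After 1 h in suspension they were plated in 0.5% serum on 12 kPa polyacrylamide gels that carried a coat of 0.05 mg/ml type I collagen, and RNA was taken after 18 h. In the col1 group the coating was collagen alone. In the col1-ACLP group the collagen was polymerized with 30 nM recombinant aortic carboxypeptidase-like protein (ACLP), which cells secrete into the matrix, where it attaches to collagen fibrils. The recombinant mouse protein came from the medium of transfected AD293 cells. In the col1-ACLP+SB group the cells on that coating also received SB431542, an inhibitor of the kinase of the type I TGFβ receptor ALK5, at 5 µM by the study's methods. Each group had 4 libraries. No group received SB431542 on collagen without ACLP, so the effect of the inhibitor alone cannot be told apart from its effect on cells that meet ACLP, and all cells came from 1 line and time point.

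Chemokines are small secreted proteins that guide migrating cells. Ligands such as CXCL1 and CXCL5 act on CXCR2 of neutrophils, CCL2 and CCL7 act on CCR2 of monocytes, and CXCL12 acts on CXCR4 and is bound by the scavenging receptor ACKR3. IL-6 and LIF signal through the shared receptor chain gp130, encoded by *Il6st*, to JAK kinases and STAT3. Serum amyloid A3 and lipocalin 2, an iron-siderophore binding protein, are secreted in the acute phase response, and MIF is a cytokine that binds CD74. Mesenchymal stromal cells are a known source of many of these products, and NF-kB and C/EBP factors are known regulators of several of the genes.

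Promoter sequences are shown first for 6 of the genes, because the set held genes that fell, a gene that rose and genes that did not pass the test. RefSeq windows on GRCm38.p6, from 250 bases before to 50 bases after the start, were at hand for 7 of the 10 genes, all but *Cxcl5*, *Ccl2* and *Ccl7*. Each window was searched on both strands for 6 letter patterns, namely GGANNTTCC for kappaB, TTNNGNAA for C/EBP, TTCNNNGAA for STAT, TGACTCAN for AP-1, GAAANNGAA for the interferon response element and ACGTG for HIF, where N is any base. The 250 bases before the start are printed 5′ to 3′ on the strand of the gene, with matches to any of these patterns in capitals. *Cxcl1* lies at chr5:90890995-90891244 (+ strand), *Cxcl12* at chr6:117168285-117168534 (+ strand), *Saa3* at chr7:46715677-46715926 (- strand), *Lcn2* at chr2:32387740-32387989 (- strand), *Il6* at chr5:30012864-30013113 (+ strand) and *Mif* at chr10:75860278-75860527 (- strand).
Cxcl1: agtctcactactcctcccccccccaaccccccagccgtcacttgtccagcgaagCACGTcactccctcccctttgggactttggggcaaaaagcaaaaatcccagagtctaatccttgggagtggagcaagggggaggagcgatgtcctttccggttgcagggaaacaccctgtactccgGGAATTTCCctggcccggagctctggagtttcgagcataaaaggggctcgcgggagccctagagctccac
Cxcl12: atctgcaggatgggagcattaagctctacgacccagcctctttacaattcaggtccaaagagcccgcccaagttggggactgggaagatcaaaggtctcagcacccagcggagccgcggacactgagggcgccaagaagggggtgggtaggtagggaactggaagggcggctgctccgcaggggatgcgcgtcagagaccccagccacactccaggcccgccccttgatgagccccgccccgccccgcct
Saa3: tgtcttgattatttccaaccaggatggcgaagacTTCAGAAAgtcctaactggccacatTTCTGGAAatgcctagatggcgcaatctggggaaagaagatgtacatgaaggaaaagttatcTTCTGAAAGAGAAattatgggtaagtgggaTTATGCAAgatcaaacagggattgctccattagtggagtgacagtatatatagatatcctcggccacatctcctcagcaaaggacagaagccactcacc
Lcn2: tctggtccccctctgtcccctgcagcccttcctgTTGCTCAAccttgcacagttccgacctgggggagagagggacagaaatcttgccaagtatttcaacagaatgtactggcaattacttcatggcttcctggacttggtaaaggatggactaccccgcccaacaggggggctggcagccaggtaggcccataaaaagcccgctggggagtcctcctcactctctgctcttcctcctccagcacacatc
Il6: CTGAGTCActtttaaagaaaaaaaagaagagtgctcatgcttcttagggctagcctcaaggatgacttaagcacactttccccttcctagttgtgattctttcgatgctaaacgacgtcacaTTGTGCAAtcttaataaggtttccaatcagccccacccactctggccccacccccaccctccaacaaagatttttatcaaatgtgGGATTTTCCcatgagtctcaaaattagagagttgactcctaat
Mif: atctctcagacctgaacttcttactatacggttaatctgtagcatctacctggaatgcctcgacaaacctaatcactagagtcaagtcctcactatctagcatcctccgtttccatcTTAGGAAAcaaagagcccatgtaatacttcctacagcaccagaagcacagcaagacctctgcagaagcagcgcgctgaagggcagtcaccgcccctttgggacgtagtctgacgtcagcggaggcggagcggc
In *Cxcl1* the kappaB pattern stood at −70 to −62, matching on both strands, with a HIF pattern at −196 to −192. *Il6* also held a kappaB match, at −43 to −35, a C/EBP match at −128 to −121 and an AP-1 match at −250 to −243. *Saa3* held 4 C/EBP matches and no kappaB match, and its interferon pattern at −125 to −117 overlapped the C/EBP match at −129 to −122. *Lcn2* held a single C/EBP match at −216 to −209. *Mif* held a C/EBP match at −133 to −126 and a HIF match after the start, at 30 to 34, which is not printed. *Cxcl12* held none of the 6 patterns, and *Lif*, also not printed, held an AP-1 match at −228 to −221. The kappaB pattern was thus in 2 of 7 windows against 4.26% of 32851 RefSeq promoters of the same length, and the C/EBP pattern in 4 of 7 against 40.7%. AP-1 was in 2 of 7 against 5.19%, HIF in 2 of 7 against 19.6%, the interferon pattern in 1 of 7 against 8.56%, and STAT in 0 of 7 against 8.3%. The letters were settled after a first search of these same windows, so the shares are a description and not a test. A match describes letters only, and the kappaB letters stood both in *Cxcl1*, which fell on col1-ACLP, and in *Il6*, which did not pass the test.

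Levels are given as CPM, the counts of a gene scaled to a common library size with the TMM method, and values with ± are means with SD over the 4 libraries of a group. A gene was called when it passed both an adjusted p of 0.05 (edgeR's quasi-likelihood test, adjusted by Benjamini-Hochberg over all genes tested) and a size of 0.58 in log2 fold change. On col1-ACLP against col1, 7 of the 10 genes fell, against 2.36% of all genes tested, and 1 rose, against 2.61%. The 7 were all 5 chemokines and both acute phase genes, and the gene that rose was *Mif*. *Il6* and *Lif* did not pass the test. The median log2 fold change of the 10 genes was −0.85, and that of all genes tested was −0.01. The 10 genes, and the gene lists used below, were chosen with earlier results of these data known. Shares of all genes beside them are therefore a description and not a test. In the 7 genes that fell, every col1-ACLP library lay below every col1 library, which held for 10.3% of all genes, and for *Mif* every one lay above, which held for 10.9%. In these bulk libraries, fewer cells that transcribe a gene and less RNA in each cell cannot be told apart.

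**Figure D1:**
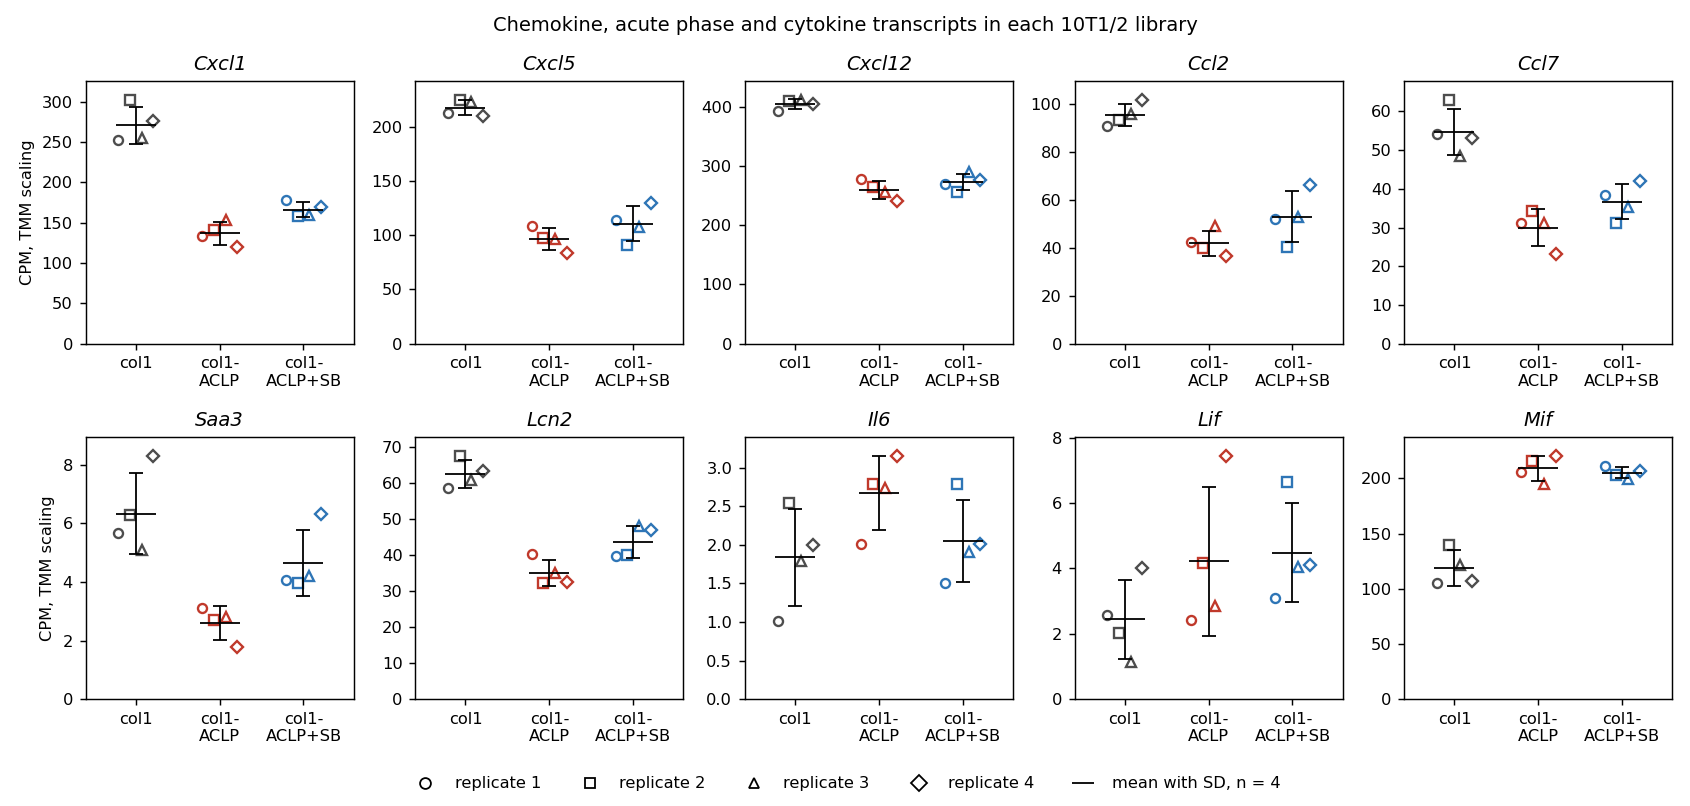
Level of each gene in CPM (vertical axes, from 0) in the 12 libraries, by group (horizontal axes); symbols mark replicate numbers and bars the mean with SD, n = 4. The chemokines, Saa3 and Lcn2 are lower on col1-ACLP than on col1 in every library, Mif is higher, and the groups of Il6 and Lif overlap.

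*Cxcl1* encodes a ligand of CXCR2. Its level on col1 was 252, 301, 254 and 275 CPM in replicates 1 to 4. On col1-ACLP it was 134, 141, 153 and 119 CPM. On col1-ACLP+SB it was 178, 158, 159 and 169 CPM. The 3 groups did not overlap: col1 was highest, col1-ACLP lowest, and col1-ACLP+SB lay between them. The log2 fold change on col1-ACLP was −0.98 (SE 0.067), which left 50.6% of the col1 level, with an adjusted p of 3.16e-11 by edgeR's quasi-likelihood test.

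*Cxcl5*, another CXCR2 ligand, stood at 213, 224, 223 and 210.3 CPM on col1. It stood at 108, 97.5, 96.8 and 83.7 CPM on col1-ACLP. With SB431542 its levels were 114, 91.2, 108 and 129.9 CPM. All col1-ACLP and col1-ACLP+SB libraries were below all col1 libraries, and the 2 groups on ACLP overlapped each other. The gene fell by 1.17 on the log2 scale on col1-ACLP (SE 0.079, adjusted p 2.67e-11 by edgeR's quasi-likelihood test).

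*Cxcl12* encodes the ligand of CXCR4, which keeps haematopoietic cells in stromal niches. It had the highest CPM of the chemokines on col1, with 394, 410.3, 411 and 405 in the 4 libraries. On col1-ACLP the values were 278, 265, 256 and 241 CPM. In the SB431542 group they were 269.7, 256, 289.8 and 278 CPM. The col1 libraries stood apart from all others, while the 2 ACLP groups overlapped. Its fall on col1-ACLP was the smallest of the 7 genes, −0.64 on the log2 scale with a 95% interval from −0.74 to −0.54 (adjusted p 2.63e-10, edgeR's quasi-likelihood test). The interval of *Cxcl5* in the same libraries, −1.34 to −1.01, did not overlap it.

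*Cxcl1* and *Cxcl5* lie in 1 gene cluster on chromosome 5 of GRCm39, on the plus strand, *Cxcl5* at 90907219 to 90909483 and *Cxcl1* at 91039100 to 91040974. The genes between and beside them had few counts. *Ppbp* had at most 19 counts in any library, *Pf4* 32, *Cxcl3* 3, *Cxcl15* 15 and *Cxcl2* 3, whereas *Cxcl5* had at least 2362 and *Cxcl1* at least 3370. *Cxcl12* lies elsewhere, on chromosome 6 at 117145496 to 117158328 on the plus strand.

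Of the CC chemokines, which carry adjacent cysteines and attract monocytes, *Ccl2* had 90.7, 93.4, 95.9 and 101.6 CPM on col1. It had 42.5, 39.9, 49.0 and 36.7 CPM on col1-ACLP. With SB431542 the values were 52.1, 40.4, 53.1 and 66.4 CPM. The col1 libraries were above all others, and the SB431542 libraries reached both into and above the col1-ACLP range. The log2 fold change on col1-ACLP was −1.18 (SE 0.102, adjusted p 2.28e-09 by edgeR's quasi-likelihood test), which left 44.0% of the col1 level.

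*Ccl7* encodes a related CCR2 ligand. Its values were 54.1, 62.8, 48.6 and 53.2 CPM on col1. They were 31.2, 34.3, 31.1 and 23.1 CPM on col1-ACLP. They were 38.3, 31.2, 35.4 and 41.9 CPM on col1-ACLP+SB. Every library on ACLP, with or without SB431542, lay below every col1 library. *Ccl7* fell by 0.87 on the log2 scale on col1-ACLP (SE 0.104, adjusted p 6.30e-07 by edgeR's quasi-likelihood test).

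*Ccl2*, at 81926397 to 81928279, and *Ccl7*, at 81936538 to 81938351, are neighbours on the plus strand of chromosome 11 with 8.26 kb between them. Other genes of that cluster were near 0, with at most 18 counts in a library for *Ccl11*, 14 for *Ccl8*, 4 for *Ccl1* and 0 for *Ccl12*. The ratio of *Ccl2* to *Ccl7* in CPM was 1.76 ± 0.224 (SD, n = 4) in col1 libraries. It was 1.42 ± 0.202 with ACLP and 1.43 ± 0.132 with ACLP and SB431542, and the libraries of the 3 groups overlapped in it. *Ccl2* overlaps the gene *Gm17268* on the opposite strand, which had 0 counts in all libraries.

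Over the 5 chemokines of the set and 30 other chemokine ligand genes, the level summed to 1273 ± 45.5 CPM in the col1 group, 709 ± 41.6 CPM in the col1-ACLP group and 799 ± 47.9 CPM in the col1-ACLP+SB group (SD, n = 4 each). The 5 genes made up 82.0%, 79.7% and 80.1% of that sum. *Cxcl12* alone was 31.9% of it on col1 and 36.7% on col1-ACLP, while *Cxcl5* was 17.1% and 13.6%. Both shifts left no overlap between the libraries of the 2 groups, with *Cxcl12* at 30.9% to 32.9% against 35.5% to 37.7% and *Cxcl5* at 16.3% to 17.8% against 12.9% to 14.7%.

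**Figure D2:**
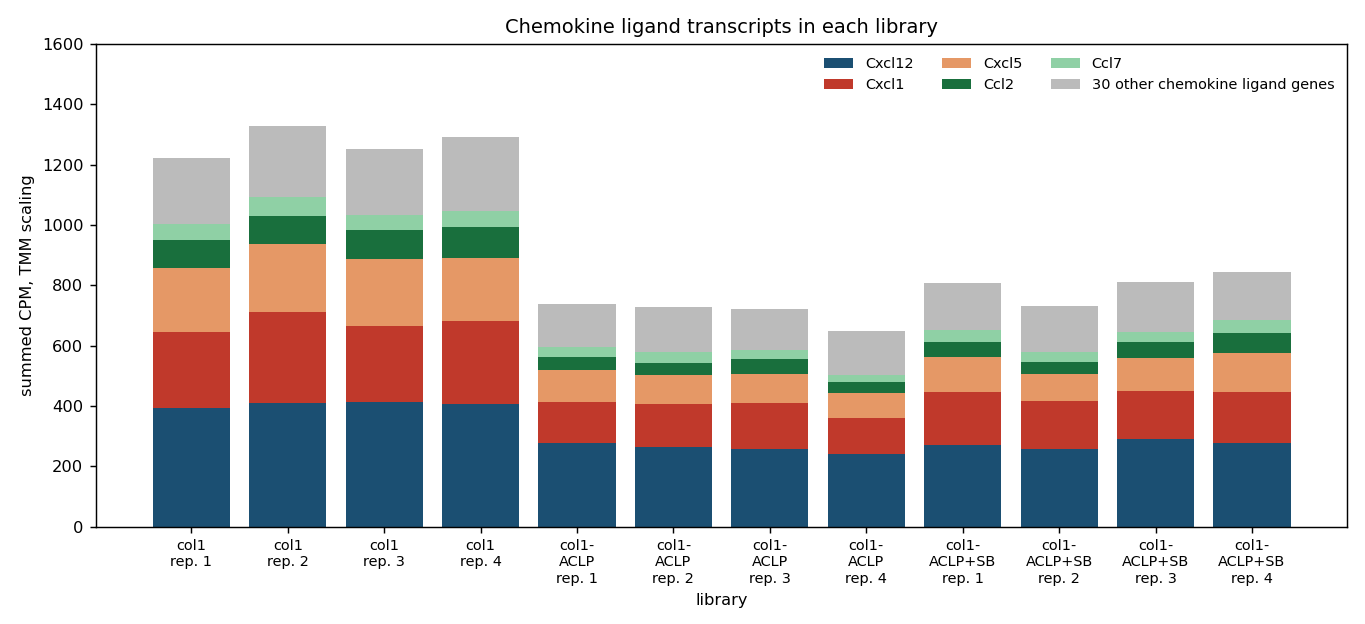
Summed CPM of chemokine ligand genes (vertical axis) in each library (horizontal axis), split into the 5 genes described and 30 others. The col1 bars reach 1223 to 1327 CPM, the col1-ACLP bars 647 to 737 CPM and the col1-ACLP+SB bars 731 to 845 CPM.

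Both acute phase genes fell on col1-ACLP. *Saa3*, at 46361422 to 46365124 on the minus strand of chromosome 7, encodes the serum amyloid A form made outside the liver. It was scarce, with 5.66, 6.28, 5.10 and 8.30 CPM on col1. It had 3.12, 2.71, 2.81 and 1.77 CPM on col1-ACLP. It had 4.07, 3.96, 4.19 and 6.32 CPM on col1-ACLP+SB. The col1 and col1-ACLP libraries did not overlap, and all col1-ACLP+SB libraries were above all col1-ACLP libraries, replicate 4 reaching into the col1 range. *Saa3* had the most negative log2 fold change of the 10 genes on col1-ACLP, −1.28, with a wide 95% interval from −1.74 to −0.82 (adjusted p 1.18e-04, edgeR's quasi-likelihood test). It rests on 50 to 357 counts per library. Its close relatives were at or near 0, *Saa1* with 0 counts in all libraries and *Saa2* and *Saa4* with at most 4 and 8.

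*Lcn2*, on chromosome 2 at 32274645 to 32278264 on the minus strand, had 58.5, 67.5, 60.8 and 63.2 CPM on col1. Its levels on col1-ACLP were 40.2, 32.3, 35.1 and 32.5 CPM. Its levels with SB431542 were 39.6, 40.1, 48.1 and 47.0 CPM. Both ACLP groups lay below col1, and col1-ACLP replicate 1 lay within the range of the SB431542 group. The log2 fold change on col1-ACLP was −0.84 (SE 0.082, adjusted p 2.29e-08 by edgeR's quasi-likelihood test), and 56.0% of the col1 level was left.

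The interleukin-6 family cytokines did not pass the test in any comparison. *Il6*, on chromosome 5 at 30218112 to 30224979 on the plus strand, had 1.02, 2.54, 1.79 and 2.00 CPM on col1. On col1-ACLP it had 2.02, 2.79, 2.74 and 3.15 CPM. With SB431542 it had 1.51, 2.79, 1.91 and 2.02 CPM. The groups overlapped throughout, on 39 to 101 counts per library. The log2 difference of col1-ACLP from col1 was 0.54 with a 95% interval from −0.09 to 1.17 (adjusted p 0.263, edgeR's quasi-likelihood test), so a fall of the size seen in the chemokines lay outside the interval while a rise beyond 0.58 lay inside it.

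*Lif*, on chromosome 11 at 4207557 to 4222514 on the plus strand, encodes the factor named for inhibiting leukaemia cell growth. Its col1 values were 2.58, 2.04, 1.12 and 4.02 CPM. The col1-ACLP values were 2.41, 4.17, 2.84 and 7.44 CPM. The col1-ACLP+SB values were 3.10, 6.65, 4.05 and 4.10 CPM. The groups overlapped, and replicate 4 was highest in both col1 and col1-ACLP. The log2 difference of col1-ACLP from col1 was 0.77 with a 95% interval from 0.07 to 1.48, and the adjusted p was 0.131 by edgeR's quasi-likelihood test. Without col1 replicate 4 the difference was 1.13 with an adjusted p of 0.0323, and with no filter on low counts the adjusted p was 0.0297, so the call of *Lif* depends on 1 library and on the filter. Over all alternative fits the difference ran from 0.36 to 1.13 and the adjusted p from 0.0297 to 0.583.

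*Mif*, on chromosome 10 at 75695187 to 75696074 on the minus strand, encodes macrophage migration inhibitory factor, which most cells make and store. It was the gene of the set that rose. Its col1 values were 105, 140.1, 122 and 107 CPM. Its col1-ACLP values were 206, 216, 195 and 220.4 CPM. Its col1-ACLP+SB values were 211, 203, 199.7 and 207 CPM. Both ACLP groups were above all col1 libraries and overlapped each other. The log2 fold change on col1-ACLP was 0.82 (SE 0.068, adjusted p 1.12e-09 by edgeR's quasi-likelihood test), a level 177% of that on col1. Pseudogenes of *Mif* in the table had at most 14 counts in any library.

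The combination of ACLP and SB431542 was then set against collagen alone. On col1-ACLP+SB against col1, 3 of the 10 genes were called lower, against 1.01% of all genes, and 1 higher, against 1.27%. They were *Cxcl1* with a log2 fold change of −0.71, *Cxcl5* with −0.97, *Ccl2* with −0.85 and, in the other direction, *Mif* with 0.79. Their adjusted p-values by edgeR's quasi-likelihood test were 2.61e-08, 1.75e-09, 1.04e-06 and 5.20e-09. *Cxcl12*, *Ccl7* and *Lcn2* had adjusted p-values of 6.07e-09, 3.19e-04 and 6.48e-05 in the same test, but log2 fold changes of −0.57, −0.58 (−0.575 before rounding) and −0.51, short of the size required. On the adjusted p alone, 6 genes were lower, against 4.54% of all genes, and 1 higher, against 4.6%. Those 6 had all col1-ACLP+SB libraries below all col1 libraries, as did 6.32% of all genes, and *Mif* had all above, as did 6.7%. *Saa3* overlapped col1, with a log2 difference of −0.46 and an adjusted p of 0.232 by edgeR's quasi-likelihood test. *Il6* and *Lif* had log2 differences of 0.16 and 0.86, with adjusted p-values of 0.856 and 0.134 in that test. The median over the 10 genes was −0.54, and over all genes 0.0046. This comparison and the previous one share the col1 libraries.

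The direct comparison of col1-ACLP+SB with col1-ACLP asks what the inhibitor changed in cells on ACLP. No gene of the set was called in either direction by edgeR's quasi-likelihood test, where 0.085% of all genes were called higher and 0.0425% lower. At an unadjusted p under 0.05, 6 of the 10 genes were higher and 0 lower, and 12.8% of all genes passed that level in either direction. DESeq2 called 1 gene, *Saa3*, and limma-voom 0. On the adjusted p alone 2 genes were higher, against 0.571% of all genes. For the opposite direction the share of all genes was 0.905%. The 2 genes were *Cxcl1*, with a log2 fold change of 0.28 (95% interval 0.14 to 0.42, adjusted p 0.0333), and *Lcn2*, with 0.32 (0.15 to 0.49, adjusted p 0.0478), both by edgeR's quasi-likelihood test. Neither held under every alternative. The adjusted p ranged from 2.59e-04 to 0.133 for *Cxcl1* and from 0.00482 to 0.160 for *Lcn2*, each lowest in edgeR's quasi-likelihood test with no filter on low counts and highest without col1-ACLP replicate 4. *Ccl2*, at 0.33 with an adjusted p of 0.108 in edgeR's quasi-likelihood test, ranged from 4.99e-04 with no filter to 0.373 without col1-ACLP+SB replicate 4. *Cxcl1* and *Saa3* had every col1-ACLP+SB library above every col1-ACLP library, as did 3.65% of all genes, and none of the 10 had every library below, as 4.52% of all genes did.

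Relative to its col1 level, *Saa3* stood at 41.1% with ACLP alone and at 72.9% with ACLP and SB431542. The log2 difference between the 2 ACLP groups was 0.83 (95% interval 0.37 to 1.29), with an adjusted p of 0.0631 by edgeR's quasi-likelihood test. DESeq2 gave an adjusted p of 0.0167 for it and the fit with no filter on low counts 0.0362. *Cxcl12* stood at 64.2% and 67.5% of its col1 level, and the interval of its difference between the ACLP groups, −0.03 to 0.17, excludes a change as large as 0.58. The same holds for *Mif*, at 177% and 173% of the col1 level, with an interval from −0.17 to 0.11. For *Cxcl5*, *Ccl2* and *Ccl7* the log2 differences were 0.20, 0.33 and 0.29 with adjusted p-values of 0.258, 0.108 and 0.191 in edgeR's quasi-likelihood test. Their 95% intervals, 0.03 to 0.36, 0.12 to 0.55 and 0.08 to 0.51, also exclude a change as large as 0.58. The adjusted p of *Ccl7* ranged from 0.0276 to 0.490 over the alternative fits. *Il6* and *Lif* had wide intervals there, −1.01 to 0.25 and −0.61 to 0.78, that hold changes beyond 0.58.

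**Figure D3:**
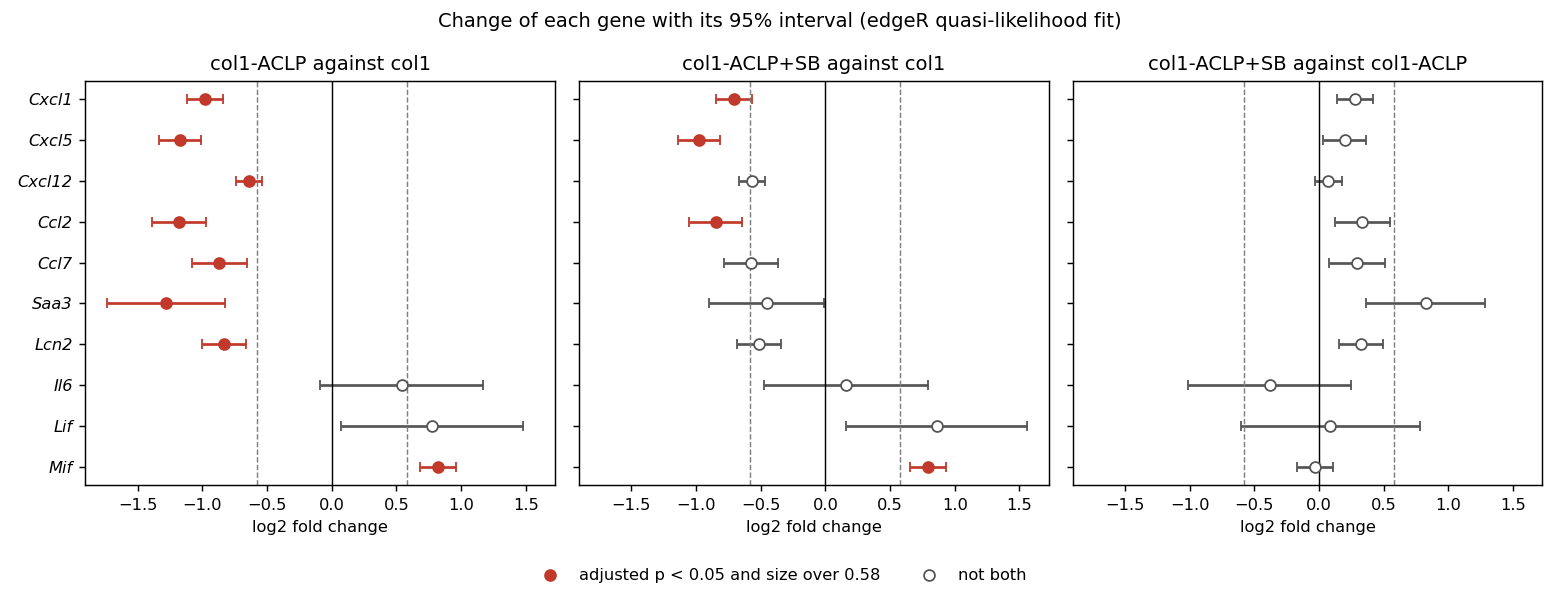
Log2 fold change of each gene (horizontal axes) in the 3 comparisons, with 95% intervals from edgeR's quasi-likelihood fit; filled points passed both thresholds and dashed lines mark 0.58 in either direction. In col1-ACLP against col1, 7 genes are filled on the left and Mif on the right; in col1-ACLP+SB against col1-ACLP no point is filled, and Saa3 has the largest difference at 0.83.

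Levels of different genes were compared per kilobase of the gene length in the table. That length need not be the length of the transcripts present. For *Cxcl1* it equals the whole span of the gene, 1875 bases, and for *Cxcl12* it is 8176 of 12833 bases. The order of genes below therefore depends on this length. On col1, *Mif* at 159 ± 21.7 CPM per kilobase and *Cxcl1* at 144 ± 12.2 (SD, n = 4) led the order and overlapped. *Cxcl5* at 117, *Ccl2* at 83.8, *Ccl7* at 68.3, *Cxcl12* at 49.6 and *Lcn2* at 23.8 followed without overlap between neighbours. *Saa3* had 2.43 CPM per kilobase, and *Il6* and *Lif*, with 0.757 and 0.561, overlapped. The high CPM of *Cxcl12* thus goes with its 8176 bases of gene length. On col1-ACLP the order opened with *Mif* alone at 281 CPM per kilobase, followed by *Cxcl1* at 73.0 and *Cxcl5* at 51.8. *Ccl7* at 37.3, *Ccl2* at 36.9 and *Cxcl12* at 31.8 overlapped there, and so did *Il6* at 1.10, *Saa3* at 0.998 and *Lif* at 0.969. On col1-ACLP+SB *Mif* had 276 and *Cxcl1* 88.5 CPM per kilobase, *Cxcl5*, *Ccl2* and *Ccl7* overlapped one another at 59.4, 46.6 and 45.8, and *Cxcl12* had 33.4.

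**Figure D4:**
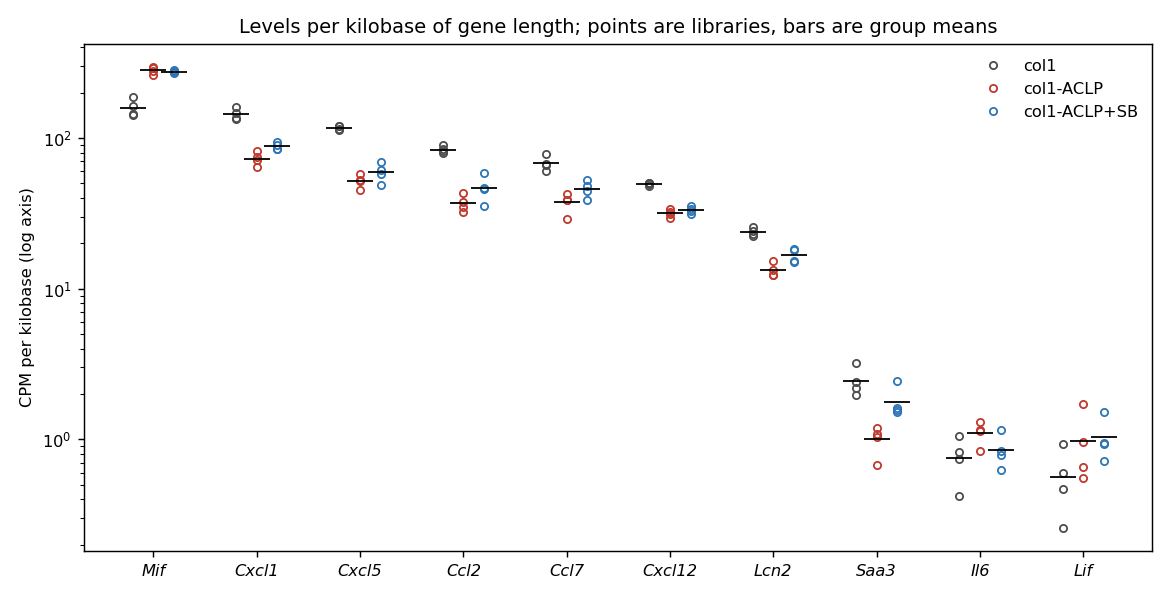
CPM per kilobase (vertical log axis) of the 10 genes in the 12 libraries, coloured by group, with bars at group means. By group mean Mif leads in all groups, the chemokines lie between 31.8 and 144, and Saa3, Il6 and Lif lie at 2.43 or less, while single libraries of Mif and Cxcl1 overlap on col1 and 1 col1 library of Saa3 reaches 3.18.

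The genes with the most similar pattern across the 12 libraries, by Pearson's r of log2 CPM, are given as a description, since the 3 groups alone make many genes alike. *Cxcl1* was closest to *Ift80* (0.986) and to *Dcn* (0.980), which encodes the proteoglycan decorin. *Cxcl12* was closest to *Egfr* (0.993) and *Rspo2* (0.988), and *Cxcl5* to *Rspo2* and *Ttc7b* (both 0.985). *Ccl2* was closest to *Sat1* (0.997), which encodes a polyamine acetyltransferase, and to *Ezh1* (0.981). *Ccl7* was closest to *H3f3a* (0.976) and *Fth1* (0.974), the ferritin heavy chain. *Saa3* was closest to *Cst3* (0.976) and *Dipk1b* (0.949), and *Lcn2* to *Hsd17b11* (0.979) and *Abhd4* (0.974). *Mif* was closest to *Ldha* (0.977), which encodes a subunit of lactate dehydrogenase, and to *Gm13394* (0.977). *Lif* had nearest genes with lower values, *Chaf1a* (0.876) and *Wdr35* (0.875).

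Among 30 other chemokine ligand genes, 10 were tested and 8 were at 0 in all libraries. On col1-ACLP against col1, 4 of the 10 fell and 0 rose, where 2.36% of all genes fell and 2.61% rose, with a median log2 fold change of −0.50 against −0.01 for all genes. *Cx3cl1*, which encodes the membrane-bound ligand fractalkine, went from 166 ± 11.0 to 105 ± 5.51 CPM (log2 fold change −0.66, adjusted p 5.65e-09). *Ccl9* went from 36.7 ± 5.51 to 20.6 ± 2.23 CPM (−0.83, adjusted p 8.24e-06), *Ccl6* from 10.1 ± 1.64 to 5.38 ± 1.14 CPM (−0.90, adjusted p 0.00114) and *Ccl5* from 2.93 ± 0.672 to 1.43 ± 0.358 CPM (−1.03, adjusted p 0.0156), all SD with n = 4 and by edgeR's quasi-likelihood test. On col1-ACLP+SB against col1, *Ccl6* at −0.83 and *Ccl9* at −0.68 were called lower, as were 1.01% of all genes, with adjusted p-values of 0.00388 and 1.94e-04.

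Of 20 genes for receptors and partners of the 10 gene products, 11 were tested. On col1-ACLP 1 rose, against 2.61% of all genes, and 1 fell, against 2.36%, with a median of −0.13. *Ackr3*, the scavenging receptor for CXCL12, rose from 21.6 ± 3.65 to 37.1 ± 0.676 CPM (log2 fold change 0.78, adjusted p 5.15e-07, edgeR's quasi-likelihood test) and was at 32.2 ± 1.32 CPM with SB431542. *Il6ra*, the ligand-binding chain of the IL-6 receptor, fell from 22.2 ± 2.81 to 10.3 ± 0.677 CPM (−1.11, adjusted p 1.20e-07) and was at 13.3 ± 1.91 CPM with SB431542 (−0.74 against col1, adjusted p 7.90e-05), by the same test. The shared chain *Il6st* was abundant, at 491 ± 11.7, 510.3 ± 17.1 and 476 ± 25.8 CPM in the 3 groups. Its log2 difference of col1-ACLP from col1 was 0.057 (95% interval −0.035 to 0.15), with an adjusted p of 0.454 in edgeR's quasi-likelihood test. *Lifr*, *Cd74*, *Cd44* and *Ddt*, a homologue of *Mif*, had log2 differences of −0.08, −0.24, −0.15 and −0.37 on col1-ACLP, and none passed the test. Among the leukocyte receptors that the chemokines act on, *Cxcr2* had 0 counts in all libraries, *Ccr2* at most 2 and *Cxcr4* at most 6. *Cxcr1*, named after its values were seen, had 44 to 138 counts per library, with group means of 1.90 CPM on col1, 1.95 with ACLP and 2.89 with ACLP and SB431542, and was not called in any comparison.

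In the list of interleukin-6 family ligands, receptors and JAK-STAT3 signalling genes, 19 of 22 were tested and 2 fell on col1-ACLP, *Il6ra* and *Pim1*, against 2.36% of all genes, with a median of −0.16. On the adjusted p alone 7 were lower, against 8.41% of all genes, and 0 higher, against 9.52%. *Pim1*, a STAT-induced kinase gene, went from 20.6 ± 1.66 to 11.7 ± 1.06 CPM (−0.82, adjusted p 2.10e-06, edgeR's quasi-likelihood test). *Osmr*, the oncostatin M receptor, had a log2 difference of −0.16 with an adjusted p of 0.0425 in that test, short of the size required. *Clcf1*, a ligand of the family, at −0.46 (adjusted p 8.32e-05), and the Janus kinase gene *Tyk2*, at −0.33 (adjusted p 0.00157, edgeR's quasi-likelihood test), were also short of it and were named after their values were seen. With SB431542 only *Il6ra* of this list was called against col1, where 1.01% of all genes were called lower and 1.27% higher.

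Among 30 other acute phase genes, 15 were tested, and on col1-ACLP 3 fell, against 2.36% of all genes, and 1 rose, against 2.61%, with a median of −0.37. By adjusted p alone 6 were lower and 1 higher, where 8.41% and 9.52% of all genes were. *C3*, the central complement component, was the most abundant in CPM and went from 2684 ± 135 to 1749.5 ± 44.4 CPM (−0.62, adjusted p 7.46e-11). *Steap4*, a metalloreductase gene, went from 19.2 ± 2.93 to 10.2 ± 1.44 CPM (−0.90, adjusted p 1.34e-05), and *Hp*, which encodes haptoglobin, from 16.9 ± 2.82 to 11.2 ± 1.28 CPM (−0.59, adjusted p 0.00473), all by edgeR's quasi-likelihood test. *Ptx3*, a long pentraxin of stromal cells, went the other way, from 551 ± 40.8 to 864 ± 88.4 CPM (0.65, adjusted p 1.76e-08), and was at 697 ± 49.2 CPM with SB431542. Its difference between the ACLP groups was −0.31 with an adjusted p of 0.00903 by edgeR's quasi-likelihood test, and all col1-ACLP+SB libraries lay below all col1-ACLP libraries. On col1-ACLP+SB against col1, *Steap4* was called, at −0.61 (adjusted p 0.0026, edgeR's quasi-likelihood test), against 1.01% of all genes called lower.

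Of 29 NF-kB subunit, inhibitor and target genes, 25 were tested and 0 were called on col1-ACLP, where 2.36% of all genes were called lower and 2.61% higher, with a median of −0.14. On the adjusted p alone 11 were lower, against 8.41% of all genes, and 1 was higher, against 9.52%. *Nfkbia*, the inhibitor that NF-kB itself induces, was named after its values were seen. It went from 89.4 ± 5.99 to 62.9 ± 3.89 CPM, a log2 difference of −0.51 with an adjusted p of 9.84e-07 by edgeR's quasi-likelihood test. Among 24 upstream cytokines and receptors, 20 were tested and 2 fell, against 2.36% of all genes, with a median of −0.09. Of them 6 were lower and 0 higher on the adjusted p alone, beside 8.41% and 9.52% of all genes. *Il33*, an alarmin of stromal and epithelial cells, fell from 2.50 ± 0.602 to 0.779 ± 0.595 CPM (−1.68, adjusted p 0.00723), and *Il1r1*, the receptor for interleukin-1, from 65.6 ± 3.30 to 43.2 ± 1.72 CPM (−0.60, adjusted p 1.31e-06), by edgeR's quasi-likelihood test. On col1-ACLP+SB against col1 the called genes were *Il33* at −1.55 (adjusted p 0.0218) and *Il1rn*, the receptor antagonist, at −0.70 (adjusted p 1.60e-06), in the same test, against 1.01% of all genes called lower. Of 14 C/EBP and mRNA decay genes, all were tested and 0 were called, beside those 2.36% and 2.61% of all genes, while 4 were lower on the adjusted p alone and 0 higher, beside 8.41% and 9.52% of all genes. The 5 genes named here were chosen after their values were seen. The mRNA decay genes *Zfp36* and *Zc3h12a* were at −0.46 (adjusted p 0.00826) and −0.43 (adjusted p 1.30e-04) and *Cebpb* at −0.35 (adjusted p 0.00189), all by edgeR's quasi-likelihood test. *Cebpd* at −0.02 and *Cebpg* at 0.18 did not pass it. In col1-ACLP+SB against col1-ACLP, 0 genes of any of these 7 lists were called, with 0.085% of all genes called higher and 0.0425% lower.

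**Figure D5:**
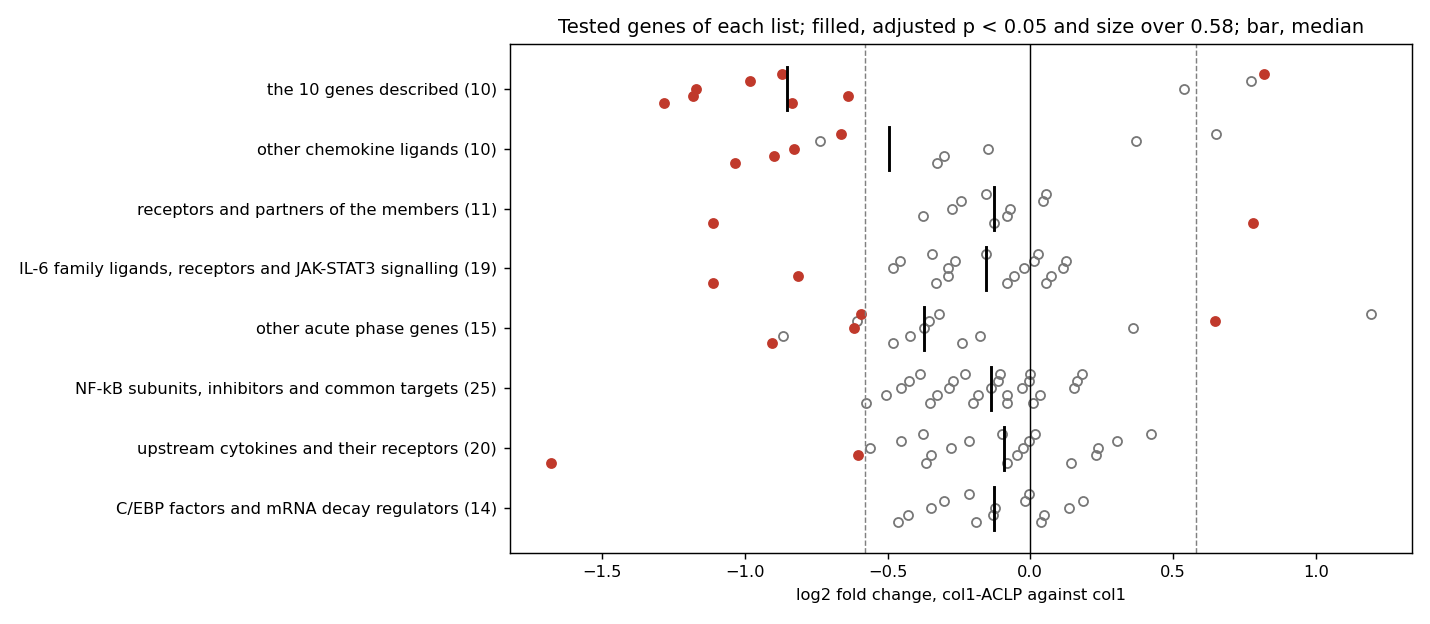
Log2 fold change on col1-ACLP against col1 (horizontal axis) of the 10 genes and of the tested genes of 7 lists (rows, number tested in brackets); filled points passed both thresholds, bars are medians and dashed lines mark 0.58. The 10 genes have a median of −0.85 and the other chemokine ligands −0.50, while the NF-kB list has −0.14 and no filled point.

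Total counts per library ran from 29246154 to 52201922, TMM factors from 0.966 to 1.02, and the common dispersion had a square root of 0.153. On the first principal component col1 replicate 2 stood at −86.7 and the other libraries between −11.1 and 20.6. Without that library the same numbers of the 10 genes were called in each of the 3 comparisons, 8, 4 and 0. Mesenchymal markers summed to between 50204 and 76527 CPM, with none of the 10 at 0. All 10 were tested, and on col1-ACLP 2 were called higher, against 2.61% of all genes, and 1 lower, against 2.36%. *Col1a1* and *Col1a2* rose, with log2 fold changes of 0.82 and 0.65, and *Pdgfra* fell by 0.76 on the log2 scale. On the adjusted p alone 3 were higher and 3 lower, beside 9.52% and 8.41% of all genes. Of 10 macrophage and leukocyte markers, 5 were tested and 0 called on col1-ACLP against col1, where 2.36% of all genes were called lower and 2.61% higher. With the adjusted p alone 1 of the 5 was lower, *Cd68* at −0.49 (adjusted p 0.0284, edgeR's quasi-likelihood test), against 8.41% of all genes. The 10 markers summed to 19.7 to 23.8 CPM in col1 libraries, 14.8 to 17.8 CPM with ACLP and 16.9 to 23.3 CPM with ACLP and SB431542, with *Adgre1* and *Tyrobp* at 0 in every library. Nearly all of this sum came from 2 genes, *Cd14*, with means of 10.6 CPM on col1 and 8.28 CPM with ACLP, and *Cd68*, with 9.47 and 6.73 CPM. On col1-ACLP the sum lay below that of every col1 library, as the 5 chemokines of the set did. With SB431542 the sum overlapped col1, while each of those 5 chemokines lay below every col1 library. The part of these markers in the fall of the chemokines was not tested. Summed endothelial, epithelial and adipocyte markers were at most 11.5, 5.04 and 2.28 CPM in any library. Of the 6 markers in each of these lists, only 2, 2 and 1 were tested. On col1-ACLP against col1 none of those tested was called, beside 2.36% of all genes called lower and 2.61% higher. With SB431542 the adipocyte marker *Fabp4* was called lower than on col1, at means of 0.436 and 1.73 CPM, against 1.01% of all genes. It had only 5 to 28 counts per library in the SB431542 group. The endothelial marker *Tek* was called lower than on col1-ACLP, at means of 4.90 and 8.87 CPM, against 0.0425% of all genes.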

How the data were processed

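Poly(A)-enriched RNA of 12 samples of 10T1/2 cells was sequenced. The authors mapped the reads with HISAT2 and deposited raw counts of reads per gene for 56748 genes, without normalization. How reads on overlapping genes were counted is not given in the sources used here. The submitters' processing notes list mm10, but 99.93% of the genes with identifiers in both overlapped their places in GENCODE vM39 on GRCm39, and coordinates of genes are given on GRCm39. All columns of counts were used.

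Counts were tested with edgeR 4.0.16 in R 4.3.3 using filterByExpr, TMM factors and the quasi-likelihood functions glmQLFit and glmQLFTest. All 12 libraries were fitted by group alone, and p-values were adjusted by Benjamini-Hochberg over the 16465 genes tested. The thresholds (adjusted p-value 0.05, log2 fold change 0.58 either way) follow the methods of the study, which used DESeq2. Groups came from the sample titles. The study calls the 4 samples of a group biological replicates, while the labels do not say that they came from separate cultures; if they did not, p-values measure only the spread between these samples. No replicate pair was a duplicate, since counts differed beyond sampling noise (chi-square over degrees of freedom 7.22 to 19.5). With 29246154 to 52201922 counts per library, the 10 genes had at least 37 counts in each library, the fewest in Il6, Lif and Saa3. Correlations for likeness used log2 CPM with a prior count of 2. Alternatives were RLE factors, library size alone, no filter, a mean of at least 10 counts, only the 2 groups compared, DESeq2 1.42.0, limma-voom (limma 3.58.1), glmTreat, the adjusted p alone, a replicate block and leaving out each library. The genes and lists were chosen with earlier results of these data known. Named were all 10 genes, every gene of a pathway list called in any comparison (at most 5 by size), named receptors, cluster neighbours and the 2 most similar genes of each, which for Il6 are not reported here. The motif letters were settled after a first search of the same windows, which used a looser kappaB pattern, a longer interferon pattern and other AP-1 letters. The fit was tested on simulated data before use.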

Additional observations from a re-analysis of the deposited data

Results flagged for a closer look

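In 1 of 30 sets of 4 libraries (each of the 10 genes in each group), 1 value lay far from the other 3. The *Saa3* level in col1-ACLP+SB replicate 4 was 6.32 CPM, and the other libraries of that group lay between 3.96 and 4.19 CPM. Chance alone gives about 1 such value in 20 sets. Without that library the log2 difference of *Saa3* between col1-ACLP+SB and col1-ACLP was 0.64 in place of 0.83, with an adjusted p of 0.23 by edgeR's quasi-likelihood test.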

How the results depend on the processing

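In col1-ACLP against col1, 8 of the 10 genes were called, and 8 to 9 when each library was left out in turn. The other alternatives gave 8 or 9, except glmTreat, which tests against the size threshold itself and gave 5 lower and 1 higher, without *Cxcl12* and *Ccl7*. In col1-ACLP+SB against col1, 4 were called, 4 to 6 with a library left out, 7 on the adjusted p alone and 1 with glmTreat. There *Cxcl12* was called with library size alone (−0.59) and without col1 replicate 1 (−0.58) or col1-ACLP+SB replicate 3 (−0.60). *Ccl7* was called with library size alone (−0.60), limma-voom (−0.58) and without col1 replicate 3 (−0.63) or 4 (−0.59) or col1-ACLP+SB replicate 1 (−0.60) or 4 (−0.64). In col1-ACLP+SB against col1-ACLP, 0 were called, also with each library left out (0 to 0), but 1 with no filter on low counts, 1 with DESeq2 and 2 on the adjusted p alone. Of the recomputed fold changes of the 10 genes, 579 kept their direction and side of the threshold, 16 newly passed it and 5 reversed. Of the recomputed counts of the 10 genes and the lists, 95 stayed within 1.5 times and 7 did not. The 5 reversals were differences of *Il6* and *Lif*, none past the threshold. *Il6* in col1-ACLP+SB against col1 was −0.042 without col1 replicate 1 and −0.019 without col1-ACLP+SB replicate 2 (range with a library left out −0.042 to 0.35). *Lif* in col1-ACLP+SB against col1-ACLP was −0.11 and −0.063 without col1-ACLP replicates 1 and 3 and −0.16 without col1-ACLP+SB replicate 2 (range −0.16 to 0.50). *Lif* in col1-ACLP+SB against col1 was called with no filter (0.86, adjusted p 0.0201 by edgeR's quasi-likelihood test) and without col1 replicate 4 (1.21, adjusted p 0.0368). With library size alone, 1 gene each of the NF-kB and adipocyte lists was called in col1-ACLP against col1. The cause of these changes was not tested.

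Same-numbered libraries did not deviate together, with correlations from −0.037 to 0.036, so the numbers were not taken to pair the samples. With a replicate block 8, 5 and 0 of the 10 genes were called in the 3 comparisons, the added gene being *Lif* (0.96, adjusted p 0.0497 by edgeR's quasi-likelihood test).

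Over all genes, 430 were higher and 389 lower in the first comparison, 209 and 167 in the second and 14 and 7 in the third. On the adjusted p alone these were 1568 and 1385, 757 and 747, and 94 and 149. With glmTreat they were 144 and 86, 54 and 27, and 0 and 0. In the third comparison library size alone gave 18 and 5, no filter 26 and 20, DESeq2 29 and 17, only the 2 groups compared 10 and 11, and leaving out col1-ACLP+SB replicate 4 gave 4 and 7. *Il6*, *Lif* and *Saa3* had 37 to 357 counts per library, and *Lif* had a CV of 49.7% on col1 and 54.0% on col1-ACLP.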
